A study of Homo sapiens with 18 samples.

Results

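The 10 genes described here are feedback regulators of mitogen-activated protein kinase (MAPK) signaling: the phosphatases DUSP1, DUSP4, DUSP5, DUSP6, DUSP8, DUSP10 and DUSP16, and the inhibitors SPRY2, SPRY4 and SPRED2. They were taken by name from a table of 22034 genes, with earlier results of these data known. All 10 were among the 14164 genes that passed the filter on low counts. Each was at the filter's level in at least 3 vehicle samples. RNA-seq was performed in 18 samples of VCaP, cells derived from a prostate cancer and positive for the TMPRSS2:ERG fusion, with 3 samples in each of 6 groups. VCaP-shERG cells, which hold an ERG hairpin in the pLKO-Tet-on vector, received DMSO or 1 µg/mL doxycycline (Dox), the drug that switches the hairpin on. Parental VCaP cells received DMSO or 50 µM PBITE-1, a compound directed at the PNT domain of the transcription factor ERG, for 4, 8 or 12 h. All groups share the fusion, and both vehicle groups are labelled DMSO. The labels give neither the duration of Dox nor the collection time of the DMSO samples. No sample with Dox in cells lacking the ERG hairpin was analysed here, so an effect of Dox itself and of ERG loss cannot be told apart in these data.

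MAPK pathways are kinase relays. Growth factor receptors act through RAS and RAF to activate the ERK kinases, whereas stress signals act through other relays to activate the JNK and p38 kinases. Many genes switched on by these kinases encode proteins that shut the same relay down. DUSP proteins remove the activating phosphates from the kinases themselves, and Sprouty and SPRED proteins act further upstream, on the way from receptor to RAF. For this reason the mRNAs of such genes are widely read as a record of pathway activity. DUSP4, DUSP5, DUSP6, SPRY2 and SPRY4 are treated below as the ERK feedback genes, DUSP1, DUSP8, DUSP10 and DUSP16 as the stress kinase genes, and SPRED2, an ERK feedback gene outside that comparison, is given apart. The division is one of emphasis, since DUSP1 and DUSP4 act on several kinds of MAPK. The members lie apart in the genome, with DUSP1 and SPRY4 on chromosome 5, DUSP6 and DUSP16 on chromosome 12, and the others on chromosomes 1 (DUSP10), 2 (SPRED2), 8 (DUSP4), 10 (DUSP5), 11 (DUSP8) and 13 (SPRY2). In GENCODE 29 (GRCh38) SPRY4 spans chr5:142310427-142326455, DUSP10 spans chr1:221701424-221742176 and DUSP5 spans chr10:110497838-110511544.

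Shown first are the 250 bases before the annotated start (RefSeq, GRCh38.p14) of 4 members. DUSP10 and SPRY4 are shown for the largest rise and the largest fall among the members, and DUSP1 and DUSP8 because their windows held a motif that is rare among all promoters. Each window is written 5′ to 3′ on the strand of the gene, which is the minus strand in every case. The windows lie at chr5:172771196-172771445 for DUSP1, chr11:1572272-1572521 for DUSP8, chr1:221742090-221742339 for DUSP10 and chr5:142324248-142324497 for SPRY4. RefSeq and GENCODE starts can differ, and the SPRY4 window lies within the GENCODE span given above. DUSP10 had another window, at chr1:221736901-221737150, which is not shown. Capitals mark the motifs found among 5 that were searched on both strands. These were the cyclic AMP response element or CRE, spelled TGACGTCA, which binds factors of the CREB and ATF families, and the AP-1 site, spelled TGACTCA, which binds pairs of FOS and JUN proteins. The core of the ETS site, to which ERG and its relatives bind, was spelled CCGGAA. The TATA box, which helps to place the start of transcription, was spelled TATAAA. The joint element of C/EBP and ATF factors was spelled TGATGCAA.
DUSP1: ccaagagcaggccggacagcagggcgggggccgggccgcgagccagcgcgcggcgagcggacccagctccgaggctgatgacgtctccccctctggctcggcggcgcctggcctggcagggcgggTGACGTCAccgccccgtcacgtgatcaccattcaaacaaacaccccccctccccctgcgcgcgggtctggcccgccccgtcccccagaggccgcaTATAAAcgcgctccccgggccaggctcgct
DUSP8: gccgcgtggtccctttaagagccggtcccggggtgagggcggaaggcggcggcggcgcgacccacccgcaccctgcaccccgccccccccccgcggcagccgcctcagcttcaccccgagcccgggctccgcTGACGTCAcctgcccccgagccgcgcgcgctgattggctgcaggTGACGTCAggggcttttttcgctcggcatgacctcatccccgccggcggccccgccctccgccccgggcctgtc
DUSP10: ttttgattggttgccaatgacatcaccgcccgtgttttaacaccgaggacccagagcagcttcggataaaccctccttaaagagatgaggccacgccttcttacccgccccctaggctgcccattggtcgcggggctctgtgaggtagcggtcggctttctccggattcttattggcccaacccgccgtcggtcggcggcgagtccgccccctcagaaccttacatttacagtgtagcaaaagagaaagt
SPRY4: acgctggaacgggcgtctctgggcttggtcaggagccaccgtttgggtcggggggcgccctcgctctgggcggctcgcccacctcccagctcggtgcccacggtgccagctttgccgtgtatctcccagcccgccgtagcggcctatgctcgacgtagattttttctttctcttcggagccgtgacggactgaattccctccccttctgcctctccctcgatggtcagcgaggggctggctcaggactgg

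The CRE letters occurred once before DUSP1, 125 bases before the start, and at 2 places before DUSP8, 118 and 74 bases before the start. Among all 35116 promoter windows of the same length (250 bases before to 50 after the start), 1.85% held this motif. The DUSP1 window also held the TATA box letters 30 bases before the start, and 11.5% of all windows held them at some place. None of the 5 motifs was found in the windows shown for DUSP10 and SPRY4, which says only that these letters are not there. Windows were available for 8 of the 10 members, 12 windows in all. CRE letters were in 2 of them (DUSP1 and DUSP8), and TATA box letters in 2 (DUSP1 and SPRED2). ETS core letters were found in 1 of these 12 windows, 142 bases before a start of SPRY2, against 17.2% of all windows. AP-1 letters were found in 1 window, of SPRED2, against 4.95% of all windows, and the C/EBP-ATF element in none, against 0.866%. A match of letters is a description and not a binding site.

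Total counts ranged from 11308600 to 17483423 per sample, so that 3 counts corresponded to 0.179 to 0.276 CPM (counts scaled to library size by the TMM method). Epithelial markers summed to 816 to 1191 CPM and prostate luminal markers to 2792 to 9455 CPM, and basal, stromal, endothelial and leukocyte markers each summed to at most 7.49 CPM in any sample. ERG itself, measured first as the check of the labels, was 431, 419 and 407 CPM in shERG-DMSO and 156, 157 and 149 CPM in shERG-Dox, so that Dox changed it by -1.44 ± 0.04 (SE) on the log2 scale. In parental cells ERG was 294, 304 and 312 CPM with DMSO, 184 to 190 CPM at 4 h of PBITE-1, 93.2 to 99.7 CPM at 8 h and 90.5 to 104 CPM at 12 h.

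A gene counted as risen or fallen where its log2 fold change exceeded 1 in size and its adjusted p lay below 0.05 (limma-voom, Benjamini-Hochberg over all genes tested). With Dox, 2 of the 10 members fell (DUSP4 and DUSP6) and 2 rose (DUSP8 and DUSP10), where 7.19% of all genes tested fell and 12.0% rose. That split depended on the scaling, with 1019 genes lower and 1699 higher by TMM, 684 and 2112 by upper quartile, and 506 and 2430 by library size, while the same number of members was called. At 4 h of PBITE-1, 1 member fell (SPRY4) and 6 rose (DUSP5, DUSP6, SPRY2, DUSP1, DUSP8 and DUSP10), beside 2.99% and 7.28% of all genes. At 8 h the counts were 1 lower and 4 higher, beside 8.86% and 14.9%, and at 12 h again 1 lower and 4 higher, beside 15.4% and 17.1%. At both later times SPRY4 fell, and DUSP5, DUSP1, DUSP8 and DUSP10 rose. The 3 PBITE-1 times were compared with the same DMSO samples, so the comparisons are not independent of one another.

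**Figure D1:**
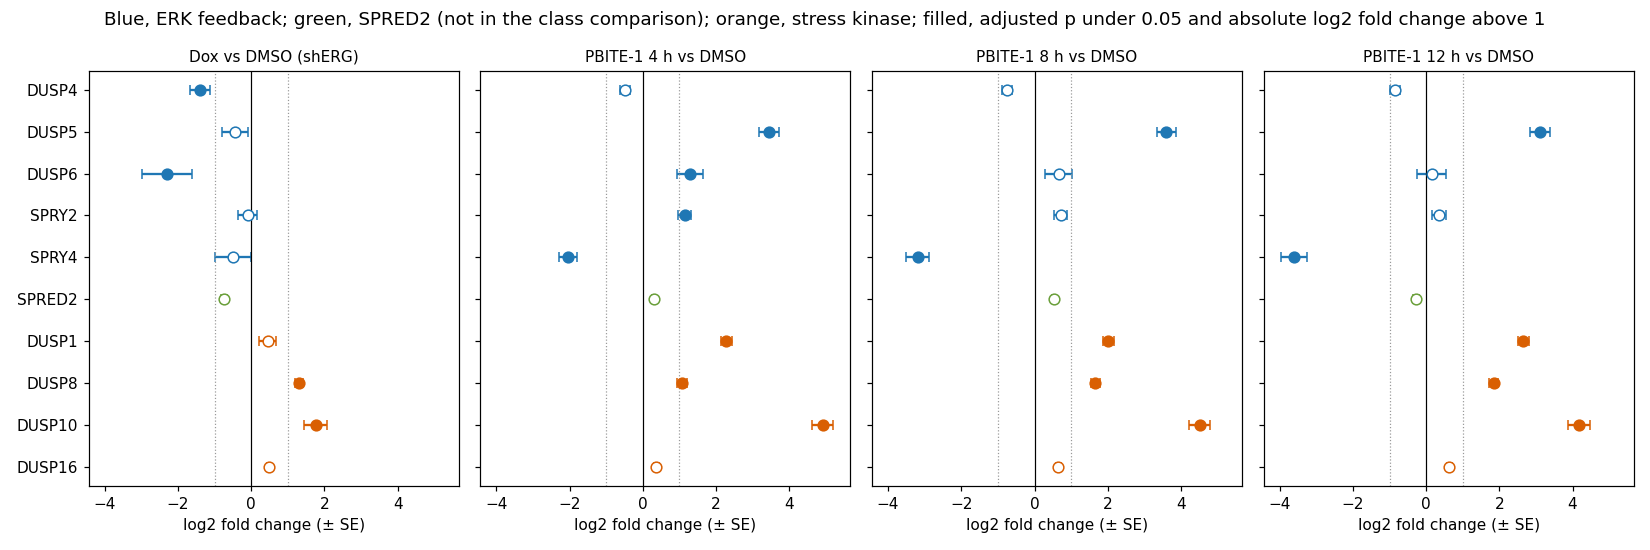
Log2 fold change (x axis, ± SE) of each member (y axis) with Dox and at 4, 8 and 12 h of PBITE-1, each against its own vehicle (3 samples per group); filled circles are called changes and dotted lines mark a log2 fold change of 1 in either direction. The stress kinase genes lie to the right of 0 in all 4 panels, whereas the ERK feedback genes at 12 h run from -3.62 for SPRY4 to 3.12 for DUSP5.

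The ERK feedback genes were split in parental cells. DUSP5, a nuclear phosphatase specific for ERK, rose the most among them. It was 1.52, 0.832 and 0.957 CPM with DMSO, 11.2, 11.7 and 12.0 CPM at 4 h, 13.4, 12.0 and 13.5 CPM at 8 h, and 8.08, 9.63 and 9.71 CPM at 12 h. Every treated sample lay above every DMSO sample. The DMSO samples held only 13 to 22 counts each, so the size of the fold rests on low counts. In bulk RNA, as for every gene below, more RNA per cell and more cells with that RNA cannot be told apart. The fitted changes were 10.9-fold at 4 h (log2 3.44 ± 0.27, adjusted p = 7.73e-14), 12.2-fold at 8 h (log2 3.60 ± 0.27) and 8.68-fold at 12 h (log2 3.12 ± 0.27, adjusted p = 2.80e-13). The decline from 8 to 12 h, a log2 difference of -0.49 ± 0.12, had an adjusted p of 0.000872 but stayed under the fold threshold. In the shERG line DUSP5 did not pass the test with Dox. It was 1.48, 1.52 and 1.05 CPM with DMSO and 1.02, 0.873 and 1.02 CPM with Dox, at 12 to 24 counts per sample, with a log2 fold change of -0.45 ± 0.35 (adjusted p = 0.258).

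DUSP6, a cytoplasmic ERK phosphatase and one of the most used readouts of ERK activity, was a low gene here, with 0 to 35 counts per sample. In parental cells it was 0.759, 1.22 and 0.897 CPM with DMSO and 2.99, 2.29 and 1.84 CPM at 4 h, without overlap. It rose 2.44-fold at 4 h (log2 1.29 ± 0.35, adjusted p = 0.00201). At 8 h it was 1.68, 1.49 and 1.20 CPM and at 12 h 0.604, 1.00 and 1.65 CPM, and at both times the samples overlapped those with DMSO. Neither later time passed the test (log2 0.66 ± 0.37 at 8 h, adjusted p = 0.108, and 0.15 ± 0.40 at 12 h, adjusted p = 0.735). With Dox the counts went from 12, 13 and 8 to 3, 0 and 6, or from 0.933, 0.822 and 0.562 CPM to 0.204, 0 and 0.437 CPM. The groups did not overlap, and DUSP6 fell by 2.29 ± 0.68 on the log2 scale (adjusted p = 0.00413). That call rested on the sample with no DUSP6 count: without shERG-Dox replicate 2 the log2 fold change was -1.24 and no longer passed. An antisense gene, AC024909.2, shares 1875 exon bases with DUSP6, and reads of the pair cannot be told apart unless strand was used in counting, which is not stated.

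DUSP4, a nuclear phosphatase that acts on ERK and JNK, was below its vehicle group with Dox and at each PBITE-1 time. In parental cells it was 10.4, 10.8 and 13.3 CPM with DMSO, 7.59, 7.77 and 8.58 CPM at 4 h, 7.40, 6.17 and 6.17 CPM at 8 h, and 6.27, 6.02 and 6.20 CPM at 12 h. All 9 treated samples lay below the DMSO samples. The log2 differences of -0.50 ± 0.14, -0.76 ± 0.14 and -0.85 ± 0.14 had adjusted p values of 0.00219, 8.72e-06 and 1.13e-06, but none exceeded the fold threshold. In the shERG line DUSP4 was 4.12, 3.98 and 5.27 CPM with DMSO and 2.51, 1.16 and 1.53 CPM with Dox. The groups did not overlap, and DUSP4 fell 2.62-fold (log2 -1.39 ± 0.27, adjusted p = 6.13e-05). The response at 12 h of PBITE-1 and that to Dox did not differ beyond the test (difference 0.49 ± 0.31, adjusted p = 0.149).

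The Sprouty genes went in opposite directions. SPRY4, an inhibitor of receptor tyrosine kinase signaling, was 9.04, 9.29 and 9.33 CPM with DMSO and 1.11, 2.59 and 3.29 CPM at 4 h. It then lay at 0.963, 1.06 and 0.829 CPM at 8 h and at 0.453, 0.936 and 0.757 CPM at 12 h, the last from 6 to 14 counts per sample. No treated sample came near the DMSO samples, and the 8 h samples lay below all those of 4 h. SPRY4 fell 4.13-fold at 4 h (log2 -2.05 ± 0.24, adjusted p = 4.07e-09), 9.15-fold at 8 h (log2 -3.19 ± 0.32) and 12.3-fold at 12 h (log2 -3.62 ± 0.36, adjusted p = 8.60e-12). The further step from 4 to 8 h, -1.15 ± 0.38, was the only called change of a member between PBITE-1 times (adjusted p = 0.0104), where 6.66% of all genes were called. It depended on PBITE-1 4 h replicate 3, without which it was -0.83. Between 8 and 12 h no member was called, beside 10.1% of all genes. By an adjusted p under 0.05 alone, 4 members passed (DUSP5, DUSP1, DUSP10 and SPRED2). By that rule 4602 of the 14164 genes tested were lower and 3931 higher, so this count is no result about the members. The count at an unadjusted p under 0.05 was also 4 by limma-voom, and edgeR and DESeq2 called 0 members.

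SPRY2, the Sprouty paralog of the same function, rose briefly. It was 3.45, 3.33 and 4.36 CPM with DMSO, 9.13, 7.69 and 7.73 CPM at 4 h, 5.78, 6.52 and 5.62 CPM at 8 h and 5.21, 5.01 and 3.79 CPM at 12 h. The samples of 4 and 8 h lay above all DMSO samples, and those of 12 h overlapped them. The rise was 2.21-fold at 4 h (log2 1.15 ± 0.18, adjusted p = 9.90e-07). At 8 h the log2 difference was 0.71 ± 0.19 (adjusted p = 0.000869), under the fold threshold, and at 12 h it was 0.35 ± 0.20 (adjusted p = 0.0978). With Dox, SPRY2 was 2.57, 2.78 and 2.11 CPM before and 2.85, 2.26 and 1.90 CPM after. These samples overlapped (log2 -0.10 ± 0.26, adjusted p = 0.747), and the sign turned with upper quartile or library size scaling.

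SPRED2, which restrains RAS-RAF signaling, was among the highest members per length. It was 37.4, 41.3 and 40.2 CPM with DMSO, 50.8, 46.7 and 47.2 CPM at 4 h, 57.1, 54.7 and 57.2 CPM at 8 h, and 30.3, 32.5 and 32.4 CPM at 12 h. The 8 h samples were the highest and the 12 h samples lay below all others of the parental line. The log2 differences from DMSO were 0.30 ± 0.07, 0.53 ± 0.06 and -0.28 ± 0.07, with adjusted p values of 0.00018, 9.67e-10 and 0.000465, none past the fold threshold. From 8 to 12 h the difference was -0.81 ± 0.07 (adjusted p = 2.80e-13). In the shERG line SPRED2 was 37.1, 36.5 and 40.2 CPM with DMSO and 21.8, 23.9 and 22.2 CPM with Dox. The groups stood clearly apart (log2 -0.75 ± 0.08, adjusted p = 1.63e-09), again short of the fold threshold.

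**Figure D2:**
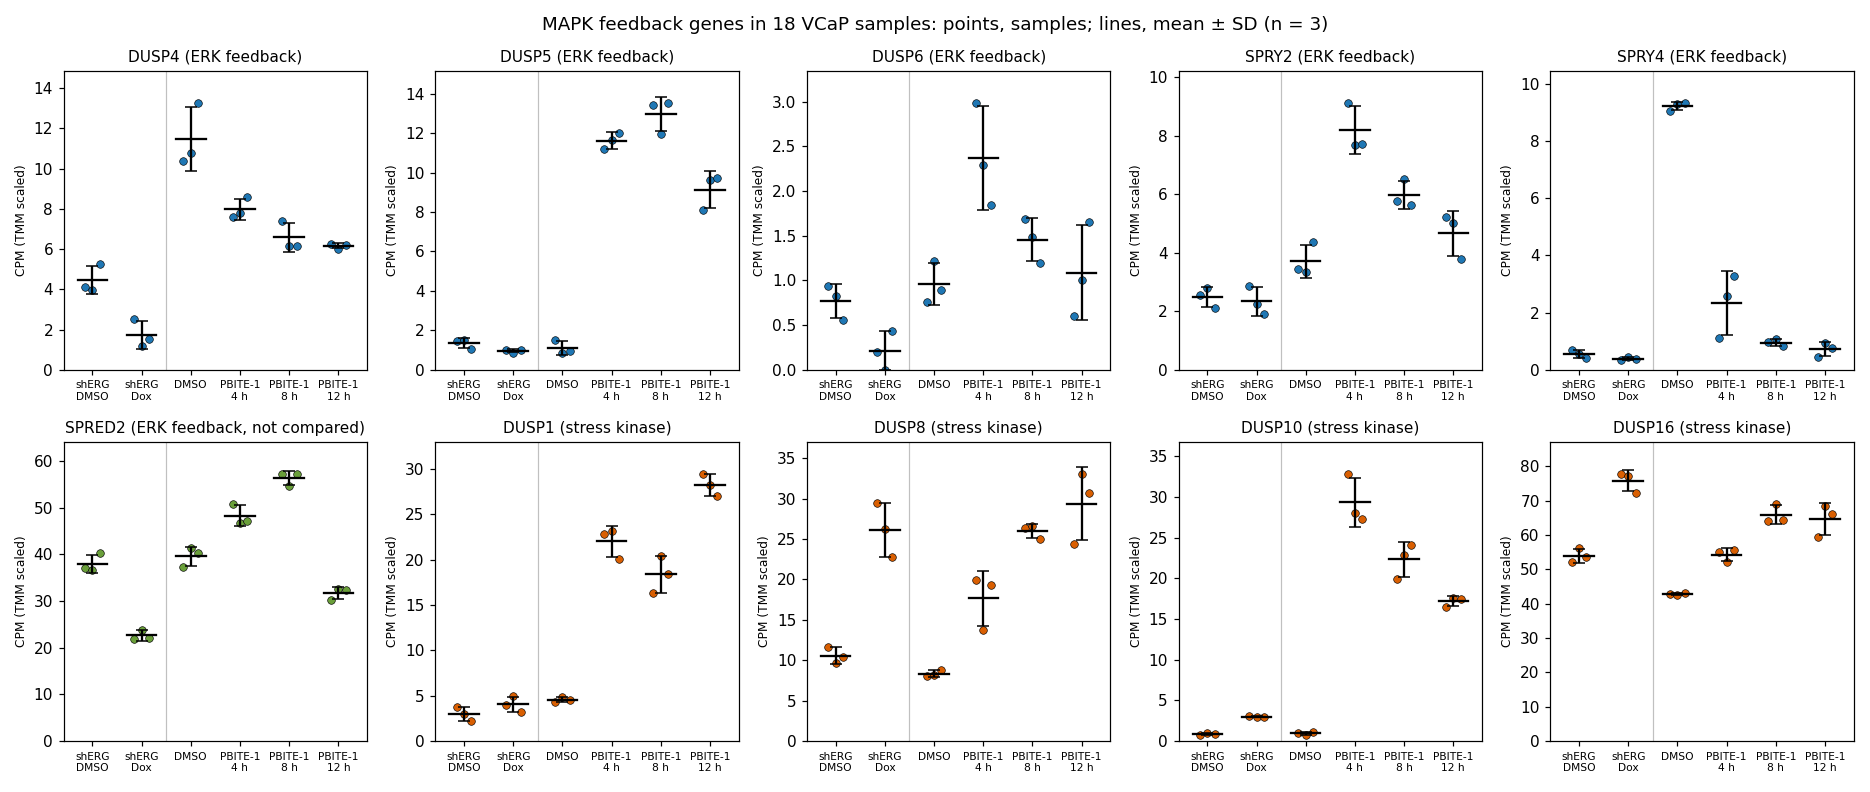
CPM (y axes, each starting at 0) of the 10 members in the 6 groups (x axes); points are samples, and lines are mean ± SD of 3 samples. DUSP10 stands at 16.5 to 32.8 CPM in every PBITE-1 sample against 0.768 to 1.14 CPM in parental cells with DMSO. SPRY4 stands at 9.04 to 9.33 CPM in parental cells with DMSO and at 3.29 CPM or less in all other groups.

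All 4 stress kinase genes were above their vehicle group at every PBITE-1 time. DUSP10, a phosphatase of JNK and p38, had the largest change of any member. It was 0.967, 0.768 and 1.14 CPM with DMSO, 32.8, 28.0 and 27.3 CPM at 4 h, 20.0, 22.9 and 24.1 CPM at 8 h, and 16.5, 17.7 and 17.5 CPM at 12 h. The treated samples were far above the DMSO samples, and the 3 times did not overlap, with 4 h highest and 12 h lowest. The DMSO samples held only 12 to 19 counts each, so the size of the fold rests on low counts. The rise was 30.2-fold at 4 h (log2 4.92 ± 0.29, adjusted p = 1.52e-17), 22.9-fold at 8 h (log2 4.52 ± 0.29) and 18.1-fold at 12 h (log2 4.18 ± 0.29, adjusted p = 4.25e-16). With Dox, DUSP10 went from 0.700, 0.948 and 0.913 CPM (9 to 15 counts per sample) to 3.06, 2.91 and 2.99 CPM. The groups did not overlap and the rise was 3.40-fold (log2 1.76 ± 0.31, adjusted p = 1.88e-05).

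DUSP1, an immediate early phosphatase with p38 and JNK among its main substrates, was 4.35, 4.87 and 4.48 CPM with DMSO. It was 22.9, 23.2 and 20.1 CPM at 4 h, 16.4, 20.4 and 18.4 CPM at 8 h, and 29.5, 28.2 and 27.0 CPM at 12 h. Unlike those of DUSP10, the 12 h samples were the highest. The rise was 4.85-fold at 4 h (log2 2.28 ± 0.15, adjusted p = 3.35e-16), 4.04-fold at 8 h (log2 2.02 ± 0.15) and 6.31-fold at 12 h (log2 2.66 ± 0.14, adjusted p = 1.52e-19). From 8 to 12 h the log2 difference was 0.64 ± 0.09 (adjusted p = 1.29e-07), under the fold threshold. In the shERG line DUSP1 was 3.81, 2.97 and 2.18 CPM with DMSO and 3.94, 4.95 and 3.21 CPM with Dox. These samples overlapped, and the log2 fold change was 0.45 ± 0.23 (adjusted p = 0.0883).

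DUSP8, a phosphatase of JNK and p38, rose under both treatments. In parental cells it was 8.01, 8.20 and 8.85 CPM with DMSO, 20.0, 13.7 and 19.3 CPM at 4 h, 26.4, 26.6 and 25.0 CPM at 8 h, and 24.3, 33.0 and 30.7 CPM at 12 h. All treated samples lay above the DMSO samples. The rise was 2.10-fold at 4 h (log2 1.07 ± 0.14, adjusted p = 6.00e-08), 3.17-fold at 8 h (log2 1.66 ± 0.13) and 3.59-fold at 12 h (log2 1.84 ± 0.13, adjusted p = 9.20e-16). The 4 h call sat at the fold threshold and was lost without PBITE-1 4 h replicate 1 (log2 0.98) or replicate 3 (log2 0.99). With Dox, DUSP8 went from 11.7, 9.67 and 10.4 CPM to 29.4, 26.2 and 22.7 CPM, without overlap. It rose 2.48-fold (log2 1.31 ± 0.11, adjusted p = 1.08e-10), and the 2 responses differed by 0.49 ± 0.19 (adjusted p = 0.0181), under the fold threshold. DUSP8 and DUSP5 have processed pseudogenes elsewhere in the genome, of which DUSP8P5 held 4 to 45 counts per sample, and whether reads were split between them was not tested.

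DUSP16, a JNK phosphatase, changed the least of the 4 at each PBITE-1 time. It was 42.7, 42.6 and 43.0 CPM with DMSO, 54.9, 52.2 and 55.8 CPM at 4 h, 64.1, 69.0 and 64.4 CPM at 8 h, and 59.3, 68.3 and 66.0 CPM at 12 h. No treated sample overlapped the DMSO samples. The log2 differences were 0.36 ± 0.06, 0.65 ± 0.06 and 0.63 ± 0.06 (adjusted p = 9.86e-06, 4.70e-12 and 5.74e-12), all under the fold threshold. With Dox, DUSP16 went from 52.1, 56.1 and 53.7 CPM to 77.7, 77.3 and 72.2 CPM. The difference was again clear of the replicate spread and under the threshold (log2 0.48 ± 0.05, adjusted p = 1.30e-08).

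The comparison of the kinds of feedback gene was made as a description, with no test over the lists. With Dox the median log2 fold change was -0.50 for the 5 ERK feedback genes and 0.90 for the 4 stress kinase genes, where the median of all genes tested was 0.02. With Dox, 0 of 5 ERK feedback genes and 4 of 4 stress kinase genes were above 0, although SPRY2 moved above 0 with upper quartile or library size scaling and 3 of these 5 had no called change. At 4 h of PBITE-1 the medians were 1.15 and 1.67, at 8 h 0.66 and 1.84, and at 12 h 0.15 and 2.25. The ERK feedback median minus the stress kinase median was therefore -0.53, -1.18 and -2.10 for the PBITE-1 times in order, and -1.40 for Dox. Over the 3 treated samples of each group its SD was 0.17, 0.19 and 0.26 for PBITE-1 and 0.19 for Dox. Each treated sample was set against the mean of its vehicle group, so these SDs leave out the vehicle spread and understate that of the difference. They were taken from log2 CPM with a prior count of 2, not from the fit that gave the medians. The medians rest in part on low genes. The ERK feedback median was the value of SPRY4 with Dox, at 5 to 9 counts per sample. It was that of SPRY2 at 4 h, and of DUSP6 at 8 and 12 h. The order of the medians was the same in the 4 comparisons, of which the 3 with PBITE-1 share their DMSO samples. It was also the same between the vehicle groups (shERG against parental), with medians of -0.57 and 0.09. Their difference of -0.67, with no PBITE-1 or Dox, was larger in size than the -0.53 at 4 h. The order is thus not particular to treatment. At 12 h the ERK feedback genes spread from -3.62 (SPRY4) to 3.12 (DUSP5), wider than the 0.63 to 4.18 of the stress kinase genes. In parental cells 3 of 5 ERK feedback genes were above 0 at each time. The medians of all genes tested were -0.01, -0.02 and -0.01 at 4, 8 and 12 h, so this count is no result about the list. In the fit DUSP6 was above 0 at 12 h only with PBITE-1 12 h replicate 3 included.

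The responses to Dox and to 12 h of PBITE-1 were set against each other in 1 fit of all 18 samples, in which the cell line, the experiment and the treatment cannot be told apart. The response was called different for 5 of 10 members, where 28.9% of all genes were called. It was higher with PBITE-1 for DUSP5 (difference 3.52 ± 0.45, adjusted p = 2.60e-09), DUSP10 (2.37 ± 0.44), DUSP1 (2.16 ± 0.28) and DUSP6 (2.40 ± 0.80, adjusted p = 0.00746). For SPRY4 it was lower, by -3.16 ± 0.65 (adjusted p = 3.41e-05). SPRY4 already stood at 0.422 to 0.700 CPM in shERG-DMSO, from 6 to 9 counts, close to the 0.453 to 0.936 CPM of parental cells at 12 h. A like fall with Dox had little room to be measured there, so this difference says little about the response to Dox. DUSP6 again rested on shERG-Dox replicate 2, without which the difference was 1.37 and not called. For DUSP16 the difference was 0.11 ± 0.08 (adjusted p = 0.248), and its sign turned with upper quartile or library size scaling. SPRED2 differed by 0.43 ± 0.10 (adjusted p = 0.000287), under the fold threshold.

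**Figure D3:**
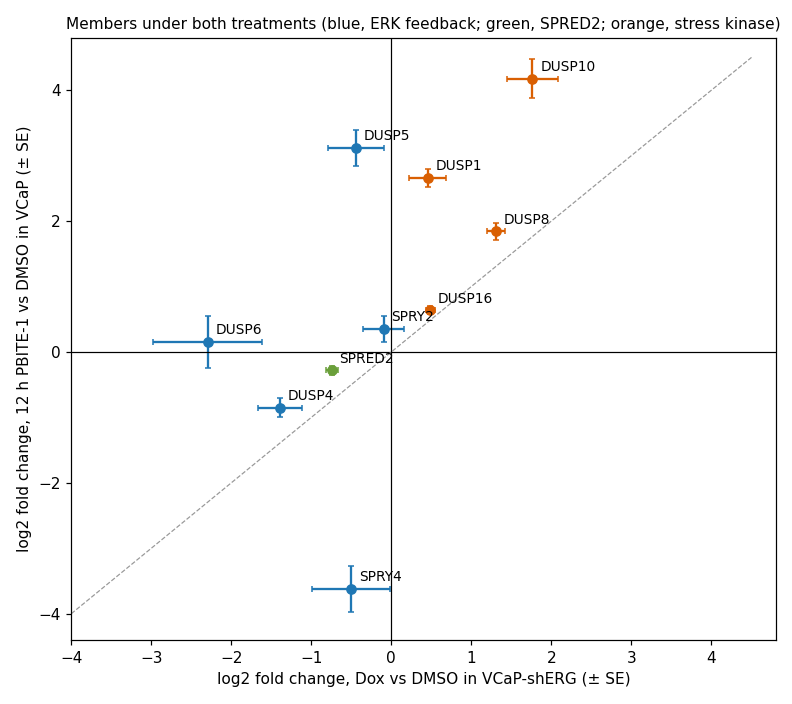
Log2 fold change (± SE) of each member with Dox in VCaP-shERG (x axis) and at 12 h of PBITE-1 in VCaP (y axis); the dashed line marks equal change. DUSP8 (1.31 and 1.84) and DUSP16 (0.48 and 0.63) lie close to the line, whereas DUSP5 (-0.45 and 3.12) lies far above it and SPRY4 (-0.50 and -3.62) far below it. SPRY4 held only 6 to 9 counts in shERG-DMSO, which left little room for a fall with Dox.

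SPRY4 was already low in the shERG line before Dox. In shERG-DMSO it was 0.700, 0.569 and 0.422 CPM, from 6 to 9 counts, and in shERG-Dox 0.340, 0.437 and 0.365 CPM, from 5 or 6 counts. The groups overlapped, at a few counts per sample, and a change of SPRY4 with Dox was not detectable at this depth (log2 -0.50 ± 0.49, adjusted p = 0.367). Before any treatment, SPRY4 was 15.8-fold lower in the shERG line than in parental VCaP (log2 -3.99 ± 0.37, adjusted p = 2.43e-12), and DUSP4 was 2.58-fold lower (log2 -1.37 ± 0.16, adjusted p = 1.74e-09). These were the 2 members called between the vehicle groups, where 6.18% of all genes were called. ERG was not lower in the shERG line before Dox: it was 407 to 431 CPM there and 294 to 312 CPM in parental cells. The lines were treated in separate arms, and a difference between lines and one between arms cannot be told apart.

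Per kilobase of exon (GENCODE 29), the order of the members changed with treatment. With DMSO in parental cells SPRED2 (7.69 ± 0.40 CPM per kb, SD, n = 3) and DUSP16 (7.47 ± 0.04) were highest and did not differ beyond their spread. DUSP1 (2.26 ± 0.13), DUSP8 (1.81 ± 0.10), DUSP4 (1.58 ± 0.22), SPRY4 (1.40 ± 0.02) and SPRY2 (1.22 ± 0.19) followed, and DUSP5 (0.42 ± 0.14), DUSP10 (0.33 ± 0.06) and DUSP6 (0.21 ± 0.05) were lowest. The samples of DUSP8 and DUSP4, of SPRY4 and SPRY2, and of DUSP5 and DUSP10 overlapped. At 4 h DUSP1 (10.9 ± 0.8), DUSP10 (10.1 ± 1.0), DUSP16 (9.48 ± 0.33) and SPRED2 (9.36 ± 0.44) stood at the top, each overlapping the next. At 12 h DUSP1 was alone at the top (14.0 ± 0.6), DUSP16 was next (11.3 ± 0.8), and DUSP6 (0.23 ± 0.11) and SPRY4 (0.11 ± 0.04) overlapped at the bottom.

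The other genes of the pathway were counted from lists that hold none of the members. Of 16 other feedback genes, 2 fell at 12 h of PBITE-1 (DUSP9 and SPRY1) and 5 rose (DUSP14, DUSP18, DUSP19, SPRY3 and ERRFI1), beside 15.4% lower and 17.1% higher among all genes tested. Their median log2 fold change was 0.49, against -0.01 over all genes, and SPRY3 reached the filter's level only in treated samples. ERRFI1, an inhibitor of the EGF receptor, was 41.5 ± 2.2 CPM with DMSO and 240.6 ± 36.9 CPM at 12 h (SD, n = 3), a log2 fold change of 2.57. DUSP18, another phosphatase, was 1.35 ± 0.75 CPM with DMSO and 16.0 ± 1.6 CPM at 12 h (log2 3.76), and it also rose with Dox, from 1.30 ± 0.67 to 4.25 ± 0.17 CPM (log2 1.85). With Dox, 2 of the 16 fell (DUSP9 and SPRY1) and 4 rose (DUSP18, DUSP19, SPRY3 and SPRED3), beside 7.19% and 12.0% of all genes.

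Of 15 genes that ERK signaling is known to switch on, 11 were tested, and 4 (ETV4, EMP1, FOSL1 and EREG) were too low. At each of 4, 8 and 12 h of PBITE-1, 8 of the 11 rose and 1 fell. Among all genes tested, 7.28%, 14.9% and 17.1% rose and 2.99%, 8.86% and 15.4% fell at these times. Of the 8, EPHA2, ETV5, IER3 and AREG reached the filter's level only in treated samples, so that they had to differ to be tested at all, and the count is no support for a change of the list. The other 4 were PHLDA1, HBEGF, EGR1 and FOS. The gene that fell, MYC, was singled out after its values were seen (log2 -2.97 at 12 h). It also fell with Dox (log2 -1.95), the only called change of this list there with all samples. With Dox, 7.19% of all genes tested fell and 12.0% rose. Without shERG-DMSO replicate 1, FOS was also called with Dox (log2 -1.40). EGR1, an immediate early transcription factor, went from 2.75 ± 0.40 CPM with DMSO to 47.5 ± 2.0 CPM at 4 h and 38.0 ± 3.5 CPM at 12 h. FOS, another one, went from 0.65 ± 0.15 to 9.95 ± 1.11 CPM at 4 h and 28.9 ± 2.3 CPM at 12 h. Their log2 fold changes at 12 h were 3.83 and 5.49.

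Of 20 ERK cascade genes, 5 rose at 12 h (FGFR1, FGFR2, SOS1, SOS2 and KSR1) and 1 fell (MAPK3, log2 -1.01), beside 17.1% higher and 15.4% lower among all genes tested, with a median of 0.31. KSR1, a scaffold of the relay, went from 0.75 ± 0.44 CPM with DMSO to 19.4 ± 1.4 CPM at 12 h (log2 4.78) and rose with Dox (log2 1.84). FGFR2, a growth factor receptor, went from 1.85 ± 0.85 to 13.7 ± 2.5 CPM (log2 2.97). Of 20 stress kinase cascade genes, 4 rose (MAP2K3, MAPKAPK2, GADD45A and GADD45B) and 4 fell (MAP2K6, MAPK10, MAPK12 and MAPK13) at 12 h, with a median of 0.07. These counts lie near the 17.1% and 15.4% of all genes and are no result about the list. GADD45B, an activator of the stress kinase relay, went from 2.28 ± 0.61 to 35.3 ± 3.6 CPM (log2 3.99), and GADD45A from 13.4 ± 0.4 to 45.2 ± 4.0 CPM (log2 1.80). Neither was called with Dox.

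Of 4 stress kinase output genes, 3 rose at 12 h (JUN, ATF3 and ZFP36), beside 17.1% of all genes, and none of these was called with Dox. JUN, a partner of FOS in AP-1, went from 28.5 ± 2.8 CPM with DMSO to 1045 ± 223 CPM at 4 h and 390 ± 15 CPM at 12 h (log2 3.83 at 12 h). ATF3, a stress-induced transcription factor, went from 0.66 ± 0.37 to 365 ± 63 CPM at 12 h (log2 9.19). In the shERG line JUN was 37.6 ± 1.8 CPM with DMSO and 60.8 ± 2.9 CPM with Dox, a log2 difference of 0.70 that did not reach the fold threshold, and ATF3 was 0.79 ± 0.11 and 0.64 ± 0.27 CPM. The fourth gene, ZFP36L1, fell with Dox (log2 -1.38).

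**Figure D4:**
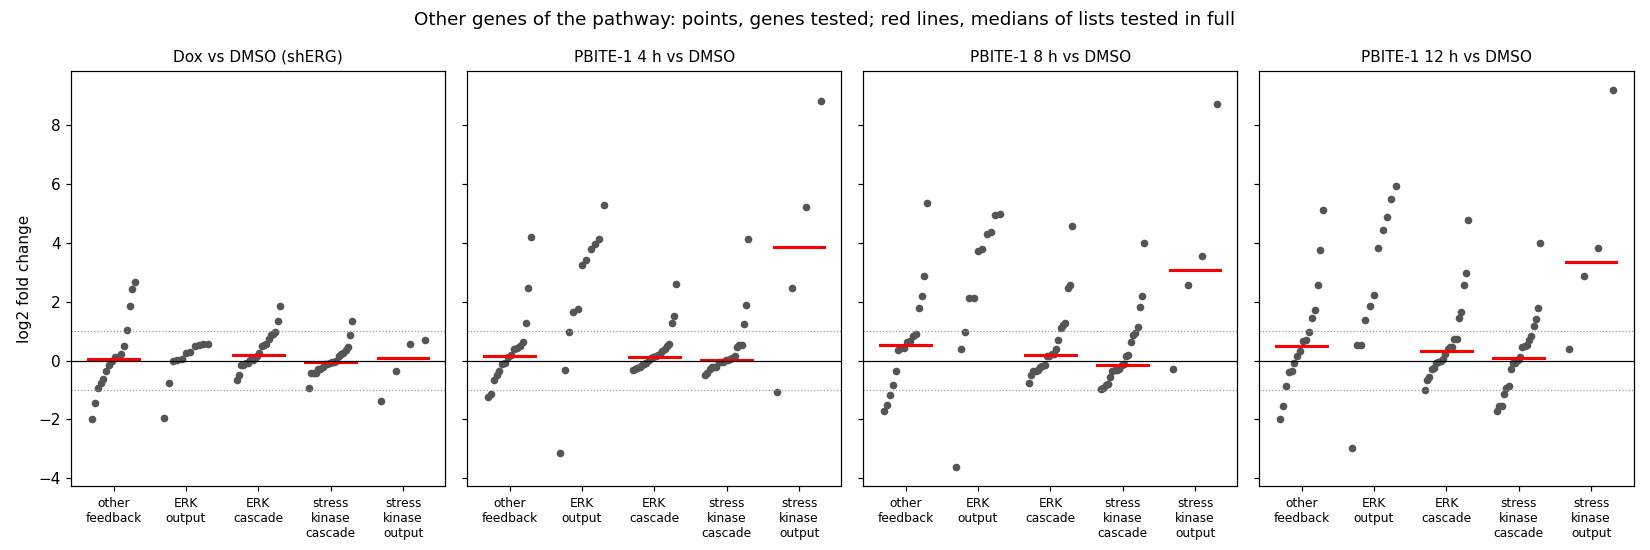
Log2 fold change (y axis) of the genes tested in 5 lists of other pathway genes (x axis) with Dox and at 4, 8 and 12 h of PBITE-1; points are genes, red lines are medians and dotted lines mark a log2 fold change of 1 in either direction. At 12 h the ERK cascade median lies at 0.31 and the stress kinase cascade median at 0.07; no median is drawn for the ERK output genes, of which 11 of 15 were tested.

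For each member the gene most like it in parental cells was named by the highest Pearson r of log2 CPM over the 12 parental samples, which share 4 groups. The pairs are a description, and nothing about shared control is drawn from them. They were DUSP10 with ARC (r = 1.00), DUSP1 with ID4 (r = 0.99), DUSP5 with MXD1 (r = 0.99), DUSP8 with THAP10 (r = 0.99), DUSP16 with STXBP3 (r = 0.99) and SPRED2 with MASTL (r = 0.99). SPRY4 with DDX3X (r = 0.98), DUSP4 with AIG1 (r = 0.97), SPRY2 with BOLA1 (r = 0.95) and DUSP6 with DOCK2 (r = 0.90) completed them. ARC had log2 fold changes of 4.91, 4.49 and 4.30 at 4, 8 and 12 h, beside 4.92, 4.52 and 4.18 of DUSP10. In the shERG line with Dox, ARC had a log2 fold change of -0.57 and DUSP10 one of 1.76. Whether the 2 genes differed there was not tested.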

How the data were processed

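Ribosomal RNA-depleted total RNA of 18 VCaP samples was sequenced, and the authors deposited whole-number counts per gene with no normalization. The study's methods name Kallisto, and the submitters' processing notes name STAR, featureCounts and hg38 without a role; which tool made the counts, the annotation and the use of strand are not given in the sources used here. Counts were taken as deposited. Genes were kept by filterByExpr of edgeR 4.0.16 over the 6 groups, scaled by TMM and tested by limma-voom (limma 3.58.1, R 4.3.3), with Benjamini-Hochberg adjustment over the 14164 genes tested. Dox was tested in the 6 shERG samples, PBITE-1 in the 12 parental samples, and comparisons across lines in all 18. CPM values are on the TMM scale of all 18 samples. The p-values and SEs come from the fits and rest on the spread between replicates, pooled over the groups of each fit (3 samples per group). Values after ± are SEs for log2 changes and SDs of 3 samples for CPM. The study's methods describe the samples as biological replicates.

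The members, the pathway lists and the rule for naming genes (the 2 called genes of each list with the largest change at 12 h and a mean count of 50 or more) were chosen with earlier results of these data known. Genes given only as members of a count were named after their values were seen. The alternatives covered DESeq2 1.42.0, the quasi-likelihood test of edgeR, other scalings, filters, fits, sample weights, call rules, a replicate block and leaving out each sample. The fit was tested on simulated data, with changes planted only in genes at higher counts and called with no fold threshold. That test does not cover the call rule used here or members at low counts. Sequences are from RefSeq.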

Additional observations from a re-analysis of the deposited data

Results flagged for a closer look

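The response to 12 h of PBITE-1 differed from the response to Dox by a test of the difference for DUSP5 (3.52 on the log2 scale), DUSP6 (2.40), SPRY4 (-3.16), DUSP1 (2.16) and DUSP10 (2.37). The change of SPRY4 from 4 to 8 h of PBITE-1 (-1.15) also passed the test of the difference between the 2 times. DUSP6 had no count in shERG-Dox replicate 2, and without that sample its difference was 1.37 and not called. SPRY4 held 5 to 9 counts in every shERG sample and 131 to 156 counts in the parental DMSO samples. A fall with Dox like that in parental cells thus had little room to be measured, and the SPRY4 difference says little about the response to Dox.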

How the results depend on the processing

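Of 1366 values of members under the alternatives other than the one with no fold threshold, 1348 kept their direction and their side of the threshold, 6 lost the call and 12 changed sign, mostly of values near 0. With at least 10 counts in every sample, DUSP6, SPRY4 and DUSP10 were no longer tested, DUSP10 for its 9 counts in shERG-DMSO replicate 1. The called members then numbered 2 with Dox, 4 at 4 h, 3 at 8 h and 3 at 12 h. They numbered 0 from 4 to 8 h, 2 for the difference of responses and 1 between vehicle groups. Of the 11807 genes left, 749 were lower and 915 higher with Dox, and 213 and 554 at 4 h. At 8 h these numbers were 788 and 1354, and at 12 h 1569 and 1637. From 4 to 8 h they were 149 and 268, and for the difference of responses 1511 and 1377. Between vehicle groups they were 330 and 56. With no fold threshold the called members numbered 9 at 8 h, 8 at 12 h and 7 from 4 to 8 h. They numbered 4 from 8 to 12 h and 5 between vehicle groups. Of the 14164 genes tested, 5238 were then lower and 5081 higher at 8 h, and 5586 and 5583 at 12 h. From 4 to 8 h these numbers were 3732 and 3783, and from 8 to 12 h 4602 and 3931. Between vehicle groups they were 3301 and 3305. With so many genes passing, these member counts are no result about the members. Library size scaling put the median of all genes with Dox at 0.28 and upper quartile scaling at 0.18, against 0.02 with TMM; SPRY2 with Dox was then 0.16 and 0.063, DUSP16 from 8 to 12 h 0.011 and 0.0078, and the DUSP16 difference of responses -0.15 and -0.016. DUSP16 from 8 to 12 h was 0.017 with only the groups compared, and GADD45B was -0.031 with sample weights. DUSP6 with Dox had an adjusted p of 0.0671 with no filter (limma-voom). Leaving out 1 sample at a time, the ERK feedback minus stress kinase median ranged from -2.45 to -1.99 at 12 h, from -0.54 to -0.36 from 8 to 12 h and from -1.02 to -0.57 for the difference of responses, and the members called from 4 to 8 h from 0 to 1. Signs also turned for SPRY2 with Dox (-0.25 to 0.044), DUSP6 at 12 h (-0.20 to 0.47), ATF3 from 4 to 8 h (-0.19 to 0.023), DUSP4 (-0.15 to 0.0070), DUSP16 (-0.056 to 0.038) and GADD45B (-0.062 to 0.093) from 8 to 12 h, DUSP18 at 4 h (-0.024 to 0.78), and DUSP18 (-0.47 to 0.36), FOS (-0.71 to 0.27) and FGFR2 (-0.59 to 0.037) between vehicle groups. The replicate numbers did not pair the samples (0 of 12 pairs had a correlation of deviations over 0.1), and with the replicate block the members called were 4 with Dox, 7 at 4 h, 5 at 8 h and 5 at 12 h, as without it. Members at a few counts per sample, DUSP6 and SPRY4 in the shERG line above all, are limited by depth.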
